A study of Mus musculus with 32 samples.

Results

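Nrxn2, Nrxn3, Nlgn1, Nlgn2, Nlgn3, Lrrtm1, Lrrtm2, Lrrtm3 and Lrrtm4 are 9 genes for neurexins, neuroligins and leucine-rich repeat transmembrane (LRRTM) proteins, and they were followed here through the paired dendrites and somas of 16 single mouse neurons. They were listed by name, with earlier results of these data known. All 9 were found among the 44081 genes of the combined 3′UTR count table and among the 23453 genes of the exon count files, and they accounted for 33 of the 74532 individual 3′ ends that were counted. The cells were hippocampal neurons of C57BL/6 embryos (embryonic day 18) kept in culture for 15 days, and the labels name no drug and no genetic change in any group. A micropipette separated the dendrites from the cell body, and each compartment was drawn into its own tube, so that 16 dendrite samples and 16 soma samples were paired by neuron. Polyadenylated RNA was copied by the aRNA method, a linear amplification by in vitro transcription that favours the 3′ end. Neurons 1 to 4 had 3 rounds of it and neurons 5 to 16 had 2 rounds, the same in both compartments. ERCC spike-in RNA was added at a dilution of 1 in 4000000 in neurons 3 to 16, and the labels give a dilution of 0 for neurons 1 and 2. The neurons came from several cultures and days that the labels do not tie to single cells, so the p-values below measure the spread between neurons, whatever its source.

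Neurexins are cell-surface receptors that sit mostly in the presynaptic membrane and reach across the synaptic cleft. Neuroligins and LRRTMs are postsynaptic membrane proteins that bind neurexins with their extracellular parts and scaffold proteins with their short tails. Nlgn1 is known mainly from excitatory synapses and Nlgn2 from inhibitory synapses, Nlgn3 has been placed at both, and the LRRTMs organise excitatory synapses. The comparison asks whether the mRNAs of these partners lie in the dendrites, where the postsynaptic partners act, or in the cell body. Nrxn2 lies on chromosome 19 from 6418731 to 6544169 (GRCm38), Nrxn3 on chromosome 12 from 88722876 to 90334935, Nlgn1 on chromosome 3 from 25426215 to 26332460, Nlgn2 on chromosome 11 from 69823122 to 69837784 and Nlgn3 on chromosome X from 101299168 to 101325963. Lrrtm1 (chromosome 6, 77242689 to 77257791) lies in an intron of Ctnna2, and Lrrtm3 (chromosome 10, 63928472 to 64090277) lies within Ctnna3, in both cases on the opposite strand. Lrrtm2 on chromosome 18 lies within Ctnna1, also on the opposite strand, and Lrrtm4 (chromosome 6, 80018877 to 80810143) lies in no other of these genes. Lrrtm2 overlaps an exon of Ctnna1, and Lrrtm3 an exon of Ctnna3. The counting used the strand to keep these α-catenin genes apart, and how completely it did so was not tested.

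Dendrite libraries held 646521 to 6954420 reads on 3′UTRs (median 1605714) and soma libraries 925525 to 21169974 (median 6165691). The reads carry no molecular identifiers. The dendrites of neurons 15 and 16 stood apart, with 1570 and 2485 genes at 10 reads or more against 3794 to 9871 in the other dendrites. The 6 GABAergic markers, among them Gad1, Gad2 and Slc32a1, summed to 1623 to 22267 CPM, that is reads per 1000000 of the library, in somas (median 10586) and to 1901 to 12982 in dendrites (median 4639). The 6 glutamatergic markers, among them Slc17a7, Slc17a6 and Neurod6, summed to 0 to 2042 CPM in somas (median 57.1) and to 0.742 to 3255 in dendrites (median 217). Gad1, which makes GABA, had reads in 16 of 16 somas and 16 of 16 dendrites, whereas the labels name the cells only as hippocampal neurons. The compartments were checked with Map2, the microtubule protein of dendrites, which was higher in dendrites (log2 fold change 2.66, edgeR's adjusted p = 0.00202).

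Messenger RNA of most of these adhesion genes reached the dendrites of most neurons, but none of the 9 was called higher in either compartment. The library size behind each CPM was scaled by TMM in edgeR, and log2 fold changes are for dendrites over somas with the neuron as a block. A total of 10880 genes had a read in 16 or more of the 32 samples and were tested, of which 90 (0.827%) were called higher in dendrites and 621 (5.71%) in somas by the quasi-likelihood test of edgeR, with p-values adjusted by Benjamini-Hochberg and a threshold of 0.05. Against this background, 0 of the 9 adhesion genes were called in each direction, and 2 of them, Nlgn3 and Lrrtm2, had an unadjusted p under 0.05, both with the lower value in dendrites, which is 22.2% of the 9 against 26.7% (2901) of all genes tested. The 9 fitted log2 fold changes were all below 0, with a median of -1.28 against -1.49 for all genes tested, and 5 of the 9 lay above the median gene. The direction rested on the scaling: with dendrites rescaled so that the median gene was at 0, the log2 fold changes of Nrxn2, Nrxn3, Nlgn1, Nlgn2 and Lrrtm3 were above 0, and those of Nlgn3, Lrrtm1, Lrrtm2 and Lrrtm4 remained below it. DESeq2 with the same pairing, the study's own test, called 6 of the 9 higher in somas (Nrxn3, Nlgn2, Nlgn3, Lrrtm1, Lrrtm2 and Lrrtm4), where it also called 46.2% of all genes tested, and none of the 9 higher in dendrites, against 4.26% of all genes. An exact sign-flip permutation test over the 16 neurons called Nrxn3 and Lrrtm2 higher in somas and none in dendrites, against 19.7% and 3.24% of all genes. Each library's CPM is a share, so that less RNA of a gene and more RNA of others cannot be told apart by it.

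**Figure D1:**
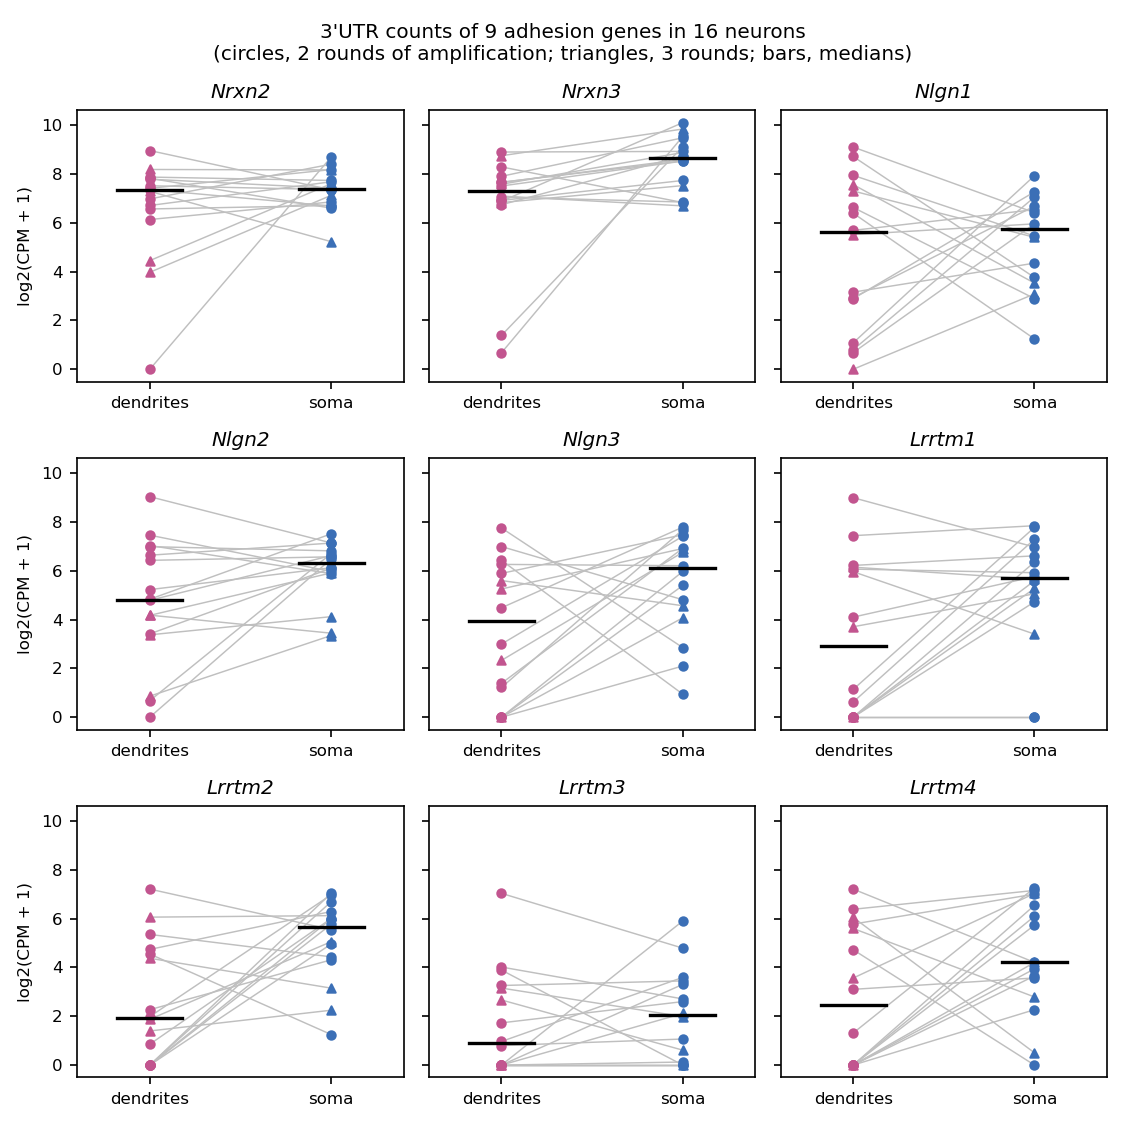
Levels of the 9 adhesion genes as log2(CPM + 1) of combined 3′UTR counts, with dendrites on the left and soma on the right of each panel, 16 neurons joined by grey lines, circles for 2 and triangles for 3 rounds of amplification, and black bars at the medians. Nrxn2 and Nrxn3 formed a tight band in all but a few dendrites, and the LRRTM genes spread from 0 to the level of the somas.

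Of the neurexins, Nrxn2 had nearly the same median level in both compartments. Its CPM in dendrites ran from 0 (neuron 15) through a median of 159.6 to 498 (neuron 16), and in somas from 36.5 through 167 to 413. The ranges overlapped almost wholly, and the dendrites were higher in 8 neurons and the soma in the other 8. The log2 fold change was -0.46 (SE 0.75, 95% interval -1.97 to 1.05, edgeR's adjusted p = 0.681), which is 1.04 above the median gene. The neuron without any dendritic read of Nrxn2, neuron 15, is the one with the fewest detected genes in its dendrites, and without it the log2 fold change was 0.03. In neurons of 2 rounds the value was -0.28 (SE 0.92) and in those of 3 rounds it was -1.03 (SE 1.19).

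Nrxn3 was the most abundant of the 9 genes in somas. It ranged from 0.598 through 158.5 to 477 CPM in dendrites and from 103 through 407 to 1101 CPM in somas, and the soma was the higher compartment in 13 of 16 neurons. The dendrites of neurons 12 and 13 had 1 and 2 reads and lay far below the other 14, which held at least 106 CPM and overlapped with the somas. The log2 fold change was -1.28 (SE 0.67, 95% interval -2.64 to 0.07, edgeR's adjusted p = 0.184), 0.21 above the median gene. It was -1.55 (SE 0.90) with 2 rounds and -0.56 (SE 0.73) with 3. The other count tables held more reads of Nrxn3 in these 2 dendrites, as given with the 3′ ends.

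Among the 3 neuroligins, Nlgn1 was uneven between dendrites. It ran from 0 through 47.7 to 549 CPM in dendrites and from 1.37 through 52.1 to 243 CPM in somas. Dendrites were higher in 7 neurons and somas in 9, with the dendrites of neurons 10, 12 and 14 above every soma and those of neurons 3, 6, 8, 9, 11, 15 and 16 at 12 reads or fewer. Its highest dendrite, neuron 14, had 1024 reads in the combined 3′UTR table but 54 in the exon file and 82 on 3′ ends, against 503, 209 and 225 in the soma of that neuron. Its log2 fold change was -0.40 (SE 1.42, 95% interval -3.26 to 2.45, edgeR's adjusted p = 0.857), an interval that holds changes of several fold in both directions. The value was -0.97 (SE 1.87) with 2 rounds and 0.75 (SE 1.82) with 3.

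Nlgn2, the neuroligin of inhibitory synapses, had reads in 15 of 16 dendrites and in every soma. It ranged from 0 through 27.1 to 524 CPM in dendrites and from 9.17 through 78.5 to 182 in somas. Dendrites 3, 12 and 15 had no more than 1 read each, and the dendrites of neuron 16 alone lay above all somas. The soma was higher in 11 of 16 neurons, with a fitted log2 fold change of -1.17 (SE 0.93, 95% interval -3.04 to 0.71, edgeR's adjusted p = 0.377), 0.33 above the median gene. Both round numbers gave values close to this, -1.13 (SE 1.21) with 2 and -1.10 (SE 1.93) with 3.

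Nlgn3 was found in 12 dendrites and in all 16 somas. Its CPM ran from 0 through 14.2 to 215 in dendrites and from 0.921 through 67.3 to 220 in somas, with the soma higher in 11 neurons. The dendrites of neurons 5, 6 and 7 were the highest and lay above their own somas, and 4 dendrites (neurons 3, 10, 12 and 16) had no read. The log2 fold change was -3.11 (SE 1.39, 95% interval -5.90 to -0.31, unadjusted p = 0.0302, edgeR's adjusted p = 0.129), 1.61 below the median gene. The value was -3.25 (SE 1.83) with 2 rounds and -2.59 (SE 1.97) with 3.

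Each of the LRRTM genes had no read in 5 to 7 of the 16 dendrites. Lrrtm1 had reads in 10 dendrites and 14 somas, from 0 through 6.62 to 509 CPM in dendrites and from 0 through 51.3 to 229 CPM in somas. Its soma was higher in 10 neurons, its dendrites in 4, and both were at 0 in neurons 11 and 15. Lrrtm2 had reads in 11 dendrites and all 16 somas, from 0 through 2.82 to 147 CPM and from 1.38 through 49.6 to 130 CPM. The soma was higher in 12 of 16 neurons, and only the dendrites of neuron 12 exceeded every soma. Lrrtm4 had reads in 9 dendrites and 15 somas, with 0 through 4.54 to 147 CPM in dendrites and 0 through 17.5 to 152 CPM in somas, and the soma was again higher in 12 neurons. The log2 fold changes were -2.51 (SE 1.37) for Lrrtm1, -3.35 (SE 1.55) for Lrrtm2 and -3.38 (SE 1.72) for Lrrtm4, all further below 0 than the median gene. None passed (edgeR's adjusted p = 0.200, 0.139 and 0.171), though the unadjusted p of Lrrtm2 was 0.0350.

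Lrrtm3 was the least abundant of the family. It had reads in 9 dendrites and 12 somas, with a median of 0.849 CPM in dendrites (highest 130, neuron 13) and of 3.15 in somas (highest 59.0, neuron 12). The soma was higher in 8 neurons, the dendrites in 5, and 3 neurons had no read in either compartment. Its log2 fold change was -0.52 (SE 1.30, 95% interval -3.13 to 2.09, edgeR's adjusted p = 0.792). Only 4 dendrites and 8 somas held 10 reads or more of Lrrtm3.

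Among the LRRTM genes, fitted values lay lower in neurons of 2 rounds than in those of 3. The median of all genes tested moved the same way, at -1.70 with 2 rounds alone and -0.62 with 3 alone. So did Nrxn3, Nlgn1 and Nlgn3, whereas Nrxn2 went the other way. Lrrtm1 had a log2 fold change of -3.57 with 2 rounds and -0.61 with 3, Lrrtm2 had -5.16 and -0.61, Lrrtm3 had -0.88 and 0.60, and Lrrtm4 had -4.57 and 0.05. The test of the difference itself, a compartment by rounds term in edgeR's quasi-likelihood fit, passed for 0 of the 9 genes and for 0 (0%) of the 10880 genes tested, of which 288 had an unadjusted p under 0.05. The smallest unadjusted p among the 9 was 0.153, for Lrrtm2, with a difference of 4.33 (SE 2.98) between 3 and 2 rounds. With 4 neurons of 3 rounds, differences of this size could not be separated from the spread between neurons.

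**Figure D2:**
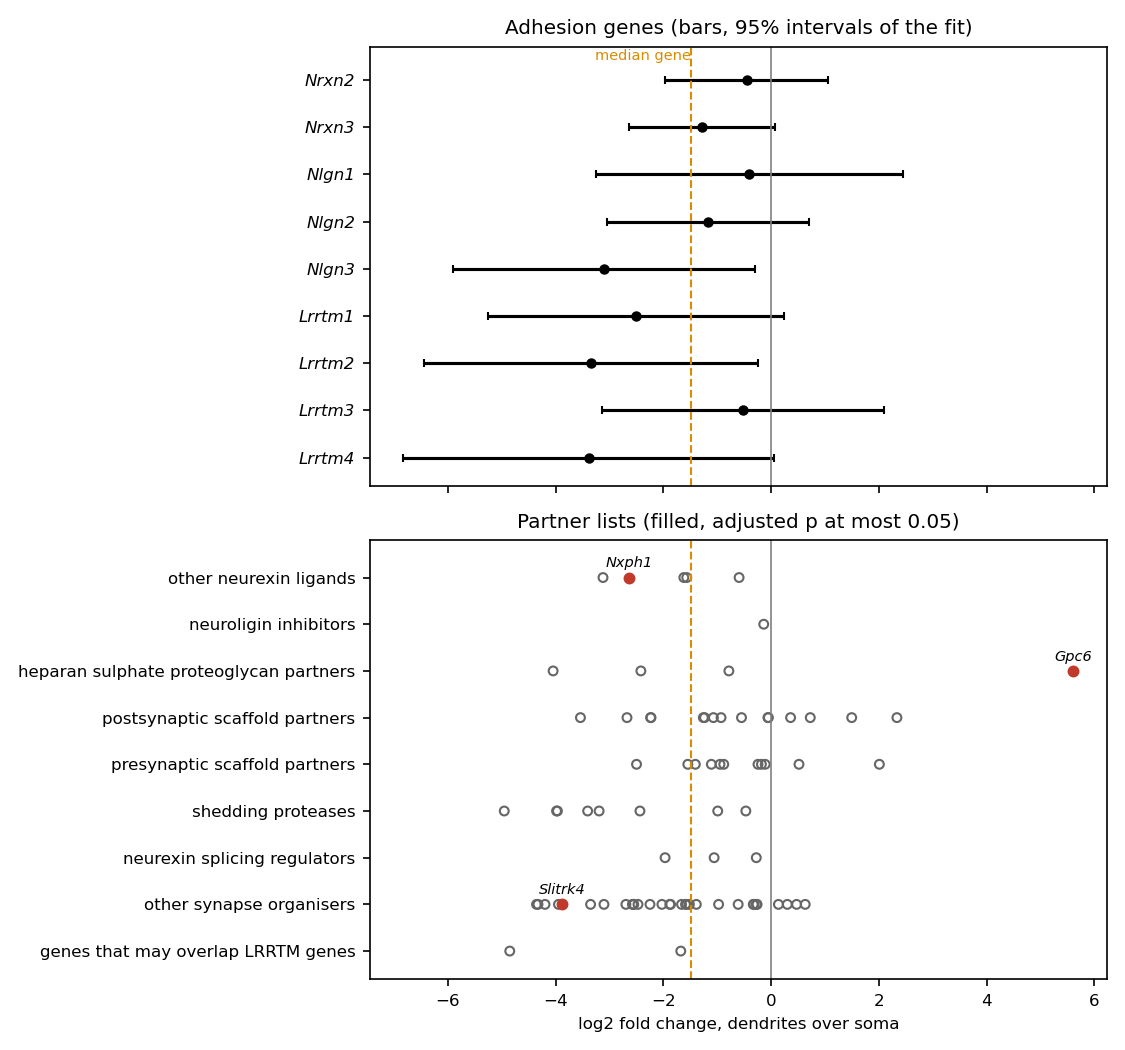
Log2 fold changes of dendrites over somas from edgeR, with the 9 adhesion genes and the 95% intervals of the fit above, and the tested genes of 9 partner lists below (filled red points, adjusted p at most 0.05). The grey line marks 0 and the dashed line the median gene at -1.49, and 7 of the 9 intervals include 0.

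Levels of different genes were compared on the most used 3′ end of each gene, counted in a window of nominally 500 nt, so that lengths are alike. In somas the medians on that scale fell from Nrxn3 (363 CPM) to Nrxn2 (132), Nlgn2 (74.5), Lrrtm1 (40.9), Lrrtm2 (21.95), Lrrtm4 (15.6), Nlgn1 (13.0), Nlgn3 (3.37) and Lrrtm3 (0.0830). Exact two-sided sign-flip permutation tests of log2(CPM + 1) over the 16 somas, adjusted over the 8 neighbouring pairs, separated Nrxn3 from Nrxn2 (higher in 14 of 16 somas, mean log2 difference 0.98 ± 0.98 SD, adjusted p = 0.00439) and Nrxn2 from Nlgn2 (16 of 16 somas, 1.17 ± 1.18, adjusted p = 0.000244). The other 6 neighbouring pairs were not separated beyond their spread, with adjusted p from 0.0750 to 0.504. In dendrites the first 4 places were the same, with medians of 124 CPM for Nrxn3, 110 for Nrxn2, 25.9 for Nlgn2 and 2.97 for Lrrtm1, and the medians of Nlgn3, Lrrtm2, Lrrtm3 and Lrrtm4 on this end were 0. The windows leave out part of the reads of some genes: all counted ends came to 97.9% of the combined 3′UTR reads in somas for Nrxn2, 42.6% for Lrrtm2, 42.5% for Nlgn1 and 22.4% for Nlgn3. On the combined counts, which are not per length, the soma median of Nlgn3 was 67.3 CPM, next after Nlgn2 with 78.5.

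Presence in dendrites was counted with the study's rule for RNAs found throughout, at least 1 read in 15 or more of the 16 dendrites. Nrxn2, Nrxn3, Nlgn1 and Nlgn2 met it and Nlgn3 and the LRRTM genes did not, which is 4 of 9 genes against 1863 (16.4%) of the 11359 genes with reads in 15 or more samples of any kind. The same 4 genes had reads in 15 or 16 dendrites in the exon files, but on summed 3′ ends Nlgn1 had reads in 10 dendrites and 3 genes met the rule. With 10 reads in place of 1, Nrxn2 alone was left (15 dendrites), followed by Nrxn3 with 14, Nlgn2 with 12 and Nlgn1 with 11. When each library was thinned to 646521 reads, the size of the smallest, the expected number of dendrites with a read was 15.1 for Nrxn3, just under 15 for Nrxn2, 13.7 for Nlgn2 and 13.1 for Nlgn1, against 7.87 to 11.2 for Nlgn3 and the LRRTM genes. In the somas, thinned to the same size, the expected number was at least 15.4 of 16 for Nlgn1, Nlgn3 and Lrrtm2 and 9.77 for Lrrtm3.

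Within a neuron, the dendritic percent was taken as the CPM in the dendrites over the CPM in both compartments, in pairs with 10 or more reads. Its mean was 43.9% ± 23.8 (SD, n = 16 neurons) for Nrxn2 and 32.9% ± 19.8 (SD, n = 16) for Nrxn3, the evenest of the 9. Their SDs were at or above those of 16.2% and 8.32% of the 10471 genes with at least 5 such neurons, whose median SD was 32.6 percentage points. Nlgn1 was the most uneven, with 47.1% ± 41.9 (SD, n = 16): 5 neurons had under 5% of it in the dendrites and 2 neurons over 95%. Its SD was at or above that of 87.3% of the same genes. These percents rest on the combined 3′UTR counts, which were over 2 times the exon counts of Nlgn1 in 17 of 32 samples. Nlgn3 and Lrrtm4 were nearly as split, with 7 of 15 neurons under 5% and 2 of 15 over 95% for each gene. For Lrrtm2 7 of 16 neurons lay under 5%, and for Nlgn2 2 of 16. In all dendrites together Nlgn1 had 2854 reads, Nlgn2 2433, Nlgn3 1262 and Lrrtm4 847, and the part of counting error in these spreads was not tested.

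**Figure D3:**
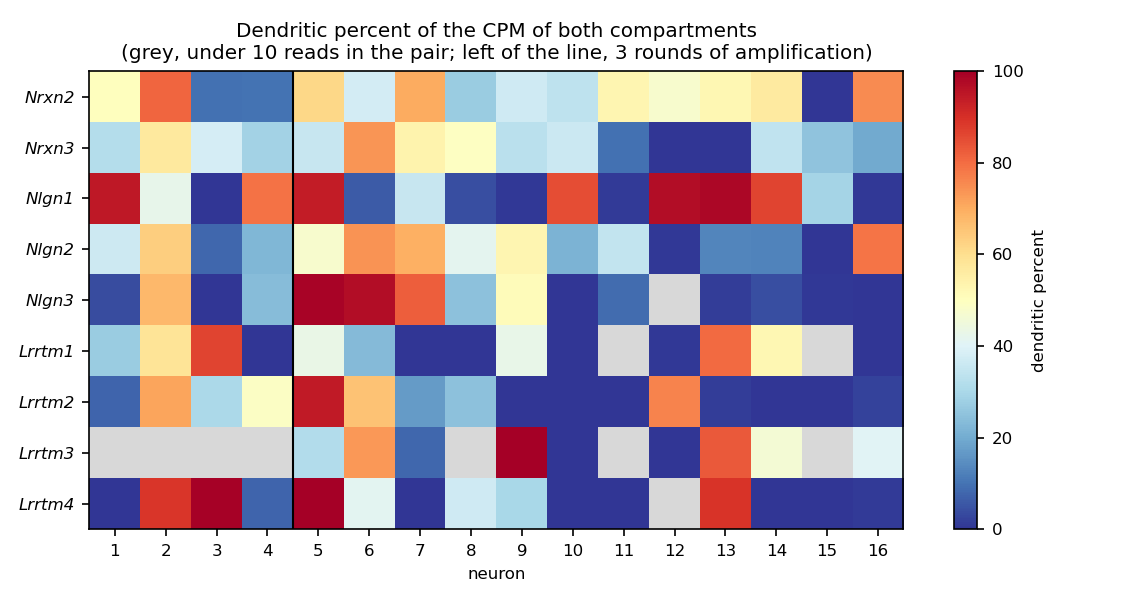
Dendritic percent of each of the 9 genes (rows) in each of 16 neurons (columns), from 0 (blue, all CPM in the soma) to 100 (red, all in the dendrites), grey where the pair held fewer than 10 reads. On these combined 3′UTR counts Nrxn2 and Nrxn3 were intermediate in most neurons, and Nlgn1 switched between both ends of the scale from neuron to neuron.

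Neurons also differed in how many of the 9 genes were higher in their dendrites. The number ran from 0 in neurons 8 and 15 to 8 in neuron 2, with a median of 2.5. Summed over the 9 genes, the dendrites held 248 to 1135 CPM (median 713) and the somas 299 to 1729 (median 1191). The sum was higher in the dendrites of neurons 2, 5, 6 and 7 and in the soma of the other 12. Neuron 5 is also the one whose dendrites had more genes at 10 reads or more than its soma (9871 against 6889).

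The spike-in reads give amounts in place of shares for the 14 neurons that received them. Per spike-in read, the dendrites held a median of 25.6% of the 3′UTR reads of the soma (lowest 4.37%, highest 224%). For Nrxn2 the median was 16.9%, for Nlgn2 7.69%, for Nrxn3 4.90%, for Nlgn1 4.84% and for Lrrtm1 3.55% (12 neurons with soma reads). For Lrrtm3, Nlgn3 and Lrrtm2 it was 1.91%, 1.74% and 1.56%, and for Lrrtm4 0.0380%. Map2 had a median of 106% on this scale. Single neurons ran from 0 to 25117% for Nlgn3, 4414% for Lrrtm2, 4143% for Nlgn1 and 3056% for Lrrtm4. Nlgn1 lay above 100% in 4 of 14 neurons. On exon counts the medians were 16.2% for Nrxn2, 12.5% for Nlgn2, 9.39% for Nrxn3 and 4.04% for Lrrtm2. They were 1.32% for Lrrtm1, 1.01% for Nlgn1, 0.749% for Lrrtm3, 0.0422% for Lrrtm4 and 0 for Nlgn3. With libraries scaled by spike-ins in edgeR's quasi-likelihood test, 8 of the 9 genes, all but Lrrtm3, were called higher in somas, as were 62.9% of the 10537 genes tested. None of the 9 was called higher in dendrites, as were 0.152% of the genes tested, and the median gene had a log2 fold change of -3.97.

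Nrxn2, Nrxn3 and Lrrtm1 had reads on a pair of 3′ ends in enough neurons to compare end usage between compartments. The table of individual ends numbers them and gives no coordinates, so they are named here by number and not as proximal or distal. Nrxn2 used end 2 (78.7% of its reads) and end 3 (21.0%), and Nrxn3 used end 1 (54.6%) and end 2 (43.8%). The share of end 3 of Nrxn2 was 23.1% ± 30.0 (SD, n = 15 neurons) in dendrites and 12.8% ± 10.1 (SD, n = 15) in somas, higher in the dendrites of 7 neurons and in the soma of 7 (p = 0.502, exact two-sided signed-rank test). The share of end 2 of Nrxn3 was 43.3% ± 29.6 and 40.4% ± 14.5 (SD, n = 15 neurons, exact signed-rank p = 0.890). For Lrrtm1 the share of end 2 was 63.8% ± 36.4 in dendrites and 86.0% ± 18.4 in somas (SD, n = 7 neurons), lower in 4 and higher in 2 (exact signed-rank p = 0.3125). Nlgn2 met the minimum of reads but placed 99.96% of them on end 1, so that 10 of its 12 neurons showed no difference and its smallest possible p was 0.5. None of the other 3 genes reached the study's threshold of p under 0.1, which 296 (8.40%) of the 3522 genes tested did, and after adjustment over all 3522 genes 0 (0%) passed at 0.05.

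In Nrxn2, Nrxn3 and Lrrtm1 the share of the higher-numbered end varied more between dendrites than between somas. The SD was 30.0 against 10.1 percentage points for Nrxn2, 29.6 against 14.5 for Nrxn3 and 36.4 against 18.4 for Lrrtm1. The same held for 67.3% of the 3522 genes tested, whose median SDs were 15.7 and 6.65 points, and the dendrites had fewer reads. In the dendrites of neuron 12 all 1504 reads on both main ends of Nrxn3 lay on end 2, and in neuron 13 it was 99.5% of 212, while their somas placed 35.03% and 63.9% there. In the dendrites of neurons 10 and 16 the share of end 2 was 2.49% and 0.694%.

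**Figure D4:**
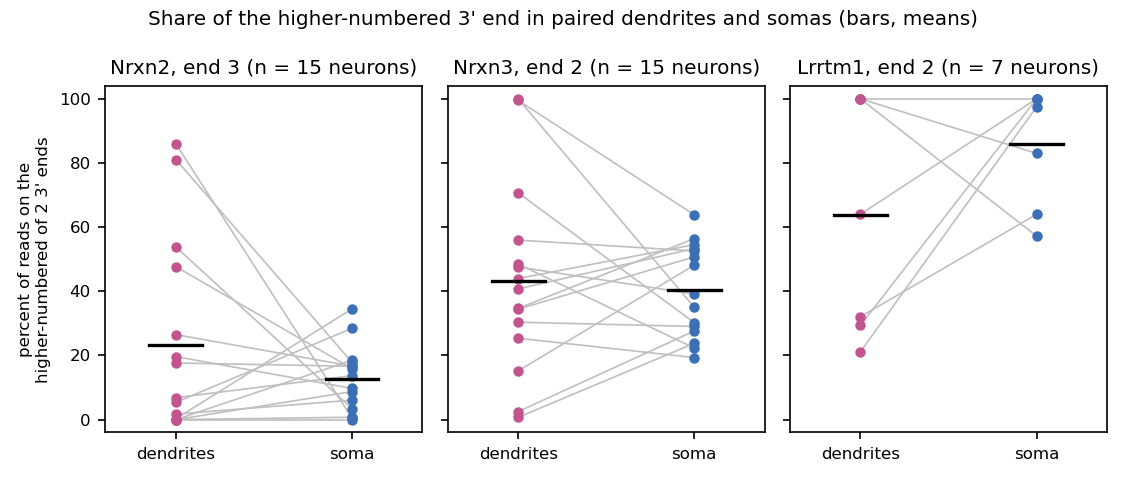
Percent of the reads on the main pair of 3′ ends that fell on the higher-numbered end, in dendrites and soma of the same neuron (grey lines), with black bars at the means, for Nrxn2 (n = 15), Nrxn3 (n = 15) and Lrrtm1 (n = 7). The dendritic points spread over most of the scale and the somatic points over less of it.

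The kinds of count table did not agree for Nrxn3. In the combined 3′UTR table its count was at or above that of end 1 in 32 of 32 samples, but below the sum of ends 1 and 2 in 27 of them. All ends together came to 165% of the combined count in dendrites and to 156% in somas. A ratio above 1.5 was rare: 35 (0.354%) of the 9885 genes with 1000 or more reads had it. The exon files held 118% of the reads of ends 1 and 2. In the dendrites of neuron 12 the combined table gave 1 read of Nrxn3, end 2 gave 1504 and the exon file 1523, and in neuron 13 the numbers were 2, 211 and 453. In the dendrites of neuron 15 the combined table gave 361, all ends 1 and the exon file 2414. So the 2 dendrites that looked nearly empty of Nrxn3 had it in the other tables. On exon counts the log2 fold change of Nrxn3 was -0.15 (edgeR's adjusted p = 0.864), and on summed ends, an alternative added after the values were seen, it was -1.06 (adjusted p = 0.211), against -1.28 from the combined table.

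Nlgn3 went the other way. Its exon counts came to 36 reads in all dendrites against 1262 on 3′UTRs, which is 2.85%, and to 464 against 11969 in somas, which is 3.88%. Exon reads of Nlgn3 were present in 4 dendrites and 14 somas, and reads on its 3′ ends in 7 and 12. Where the other 3′UTR reads of Nlgn3 lay was not tested. The log2 fold change on exon counts was -3.66 (edgeR's adjusted p = 0.129), close to the -3.11 on 3′UTRs. Exon counts were also lower than 3′UTR counts for Lrrtm4 (51.5% in dendrites, 31.9% in somas) and Nlgn1 (58.4% and 52.4%), and nearly equal for Nrxn2 (99.8% and 103.7%) and Nlgn2 (104.4% and 101%). The log2 fold change of Lrrtm4 moved from -3.38 to -0.93 with exon counts and that of Nlgn1 from -0.40 to -1.84. For Lrrtm2 the dendrites of neuron 9 had 0 reads on 3′UTRs and 514 on exons. Its log2 fold change moved from -3.35 to -2.11 with exon counts. The unadjusted p of edgeR moved from 0.0350 to 0.123 (adjusted p = 0.319 on exon counts).

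**Figure D5:**
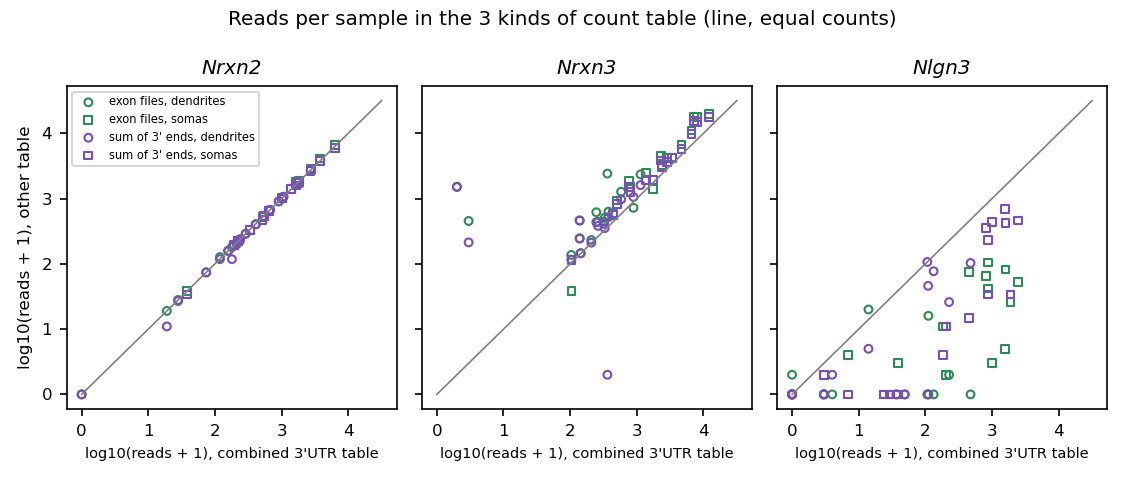
Reads per sample of Nrxn2, Nrxn3 and Nlgn3 in the exon files (green) and summed over 3′ ends (purple) against the combined 3′UTR table, all as log10(reads + 1), with circles for dendrites, squares for somas and a line at equal counts. Nrxn2 followed the line, Nrxn3 lay above it with 2 dendrites far above, and Nlgn3 lay below it.

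The partners of the adhesion genes were taken as 9 lists with 101 genes in the table, of which 80 passed the filter. Of these, 1 was called higher in dendrites and 2 in somas (0.827% and 5.71% of all genes tested), 2 and 23 had an unadjusted p under 0.05 (28.75% in the direction of somas, against 26.7% of all genes tested), and their median log2 fold change was -1.53, close to that of the median gene. Nxph1, a neurexophilin that binds neurexins from the outside, was higher in somas. It ran from 0 through 191 to 675 CPM in dendrites and from 90.8 through 907 to 1893 CPM in somas. The soma was higher in 15 of 16 neurons (log2 fold change -2.63, SE 0.75, edgeR's adjusted p = 0.0295). The call was lost without neuron 13, 14 or 16 (adjusted p = 0.0680, 0.0566 and 0.0658), when the median gene was set to 0 (-1.09, adjusted p = 0.443) and on exon counts (adjusted p = 0.0557). Slitrk4, a postsynaptic organiser that binds receptor tyrosine phosphatases, was also higher in somas, with 0 through 13.3 to 502 CPM against 24.7 through 128 to 508, in 13 of 16 neurons (-3.89, SE 1.20, edgeR's adjusted p = 0.0424). Its call held when neuron 2, 4, 5 or 7 was left out and was lost without any other neuron (adjusted p = 0.0512 to 0.113), with an adjusted p of 0.183 on exon counts and of 0.282 with the median gene at 0. In neurons of 2 rounds Nxph1 had -3.25 and Slitrk4 -5.25 (median gene -1.70). In those of 3 rounds they had -0.96 and 0.12 (median gene -0.62).

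Gpc6, a glypican of the heparan sulphate proteoglycans that bind neurexins and LRRTMs, was the partner higher in dendrites. It was a gene of low counts, from 0 through 10.0 to 72.0 CPM in dendrites and from 0 through 0 to 3.75 in somas. Reads of it were found in 11 dendrites and 7 somas. The dendrites were higher in 11 neurons and the soma in 3 (log2 fold change 5.61, SE 1.63, edgeR's adjusted p = 0.0331). The adjusted p was 0.0509 to 0.0699 without neuron 7, 9, 10, 12, 13 or 16, and a filter of 10 reads removed the gene. It had 7.05 with 2 rounds and 0.49 with 3. Glypican 6 is also made by astrocytes, and the 8 astrocyte markers summed to 0 to 665 CPM in dendrites (median 85.8) against 0 to 150 in somas (median 13.7). Of these markers 2 passed the filter and neither was called (Aqp4 at 3.23, adjusted p = 0.120, and Slc1a3 at 0.71, adjusted p = 0.718, edgeR), and the median of Gfap was 0 in both compartments. By neuron, the dendrites were higher in 10 and the soma in 4 for Aqp4, 8 and 2 for Gja1 and 7 and 4 for Sox9. The numbers were 6 and 2 for S100b, 6 and 1 for Gfap, 8 and 7 for Slc1a3 and 5 and 4 for Aldh1l1. Fgfr3 went the other way, with 1 and 8. Oligodendrocyte markers summed to a median of 53.1 CPM in dendrites and 30.5 in somas, microglial markers to 9.26 and 0.832, and neuronal markers to 6591 and 7376. The part of astrocyte RNA in the value of Gpc6 was not tested.

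The other partner lists held no further call. In the scaffolds of the postsynaptic side 0 of 15 were called, 4 had a log2 fold change above 0 and 11 lay above the median gene, with a list median of -0.93. Dlgap1, which links PSD-95 to Shank, was the most abundant of them, from 291 through 841 to 4198 CPM in dendrites and from 292 through 541 to 1416 in somas. It was higher in the dendrites of 12 neurons, with a fitted log2 fold change of 0.73 (SE 0.43, edgeR's adjusted p = 0.236). On the presynaptic side 0 of 11 scaffold genes were called, with a list median of -0.88 and 9 of 11 above the median gene. The Lin7a gene, whose product binds the neurexin partner CASK, had -0.24 (SE 0.57).

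The proteases that shed neurexins and neuroligins were the list furthest below the median gene. Their median log2 fold change was -3.30 over 8 genes tested, 0 were called, and 4 (50%, against 26.7% of all genes tested) had an unadjusted p under 0.05 with the lower value in dendrites. That share was 13.3% of 15 postsynaptic scaffolds and 0% of the presynaptic scaffolds, splicing regulators and neuroligin inhibitors. It was 40% of 5 neurexin ligands, 50% of 4 proteoglycans and 50% of 2 α-catenin genes. Shank3, a postsynaptic scaffold, was higher in dendrites (2.33, edgeR's unadjusted p = 0.0253, adjusted p = 0.119). Bace1, the β-secretase, had -2.44 (SE 1.24, edgeR's adjusted p = 0.171) with the soma higher in 12 of 16 neurons. Of the other neurexin ligands 5 of 12 genes passed the filter, with Nxph1 called and Adgrl1, a latrophilin, at -0.60 (SE 0.79). Of the neuroligin inhibitors Mdga1 had reads in 2 dendrites and 1 soma, and Mdga2 was nearly even at -0.14 (SE 1.11) with dendrites higher in 10 neurons. The splicing regulators of neurexin transcripts, Khdrbs1 (-1.97, SE 1.16) and Khdrbs3 (-1.06, SE 1.27) among 3 tested, included no call. Of the other synapse organisers 31 of 37 were tested, with 1 called (Slitrk4), 12 (38.7%, against the same 26.7%) at an unadjusted p under 0.05 with the lower value in dendrites, and a median of -1.87. Its most abundant genes were Flrt2 (-1.87, SE 0.84, adjusted p = 0.131) and Ptprd, a receptor phosphatase that binds Slitrks (-1.88, SE 0.77, adjusted p = 0.105, higher in 14 somas). The heparan sulphate proteoglycans other than Gpc6 included Gpc1 at -2.42 (SE 1.20) and Sdc3 at -0.79 (SE 1.34), neither of them called. Of the α-catenin genes around the LRRTMs, Ctnna2 had -1.68 (SE 0.91) and Ctnna1 had -4.85 (SE 1.82, adjusted p = 0.0806), again with no call.

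Across the 16 somas, the genes most like each adhesion gene were found by Spearman correlation of CPM over all 10880 genes tested. These values are descriptions: each point is 1 library, and the points share depth and amplification. Nlgn2 was close to Cadps (rho = 0.944), a vesicle priming protein, and Gprasp1 (0.903). Lrrtm2 was close to Gabbr2 (0.874), a GABA-B receptor subunit, and Arid5b (0.859). Nlgn3 was closest to Bri3bp (0.944), Tmem47 (0.932) and Abcg4 (0.926), and Lrrtm4 to Hsdl1 (0.895), Atp8a2 (0.876) and Gpr107 (0.876). For Nrxn3 the closest were Ctsb (0.865), Canx (0.862) and Slc8a1 (0.853), and for Nrxn2 Eif4g1 (0.865), Dnmt3a (0.856) and Gm13456 (0.841). Lrrtm1 was closest to Grin3a (0.856), an NMDA receptor subunit, Smim18 (0.855) and Cnst (0.844). Nlgn1 was closest to Sirt6 (0.821), Foxn3 (0.815) and Fbf1 (0.810), and Lrrtm3 to Dexi (0.847), Jph4 (0.822) and Klhdc8b (0.818).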

How the data were processed

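The authors trimmed the reads, aligned them to mm10 with STAR 2.4.0 (version from the submitters' processing notes) and counted uniquely mapped reads with VERSE, using strand. All deposited values are raw counts: on the union of 3′UTRs of each gene, on a window of 500 nt before every 3′ end (nearer ends merged), and on exons and ERCC spike-ins. The members and the lists of partner and marker genes were chosen with earlier results of these data known. Genes detected (1 read or more) in 16 samples or more were tested with edgeR 4.0.16 in R 4.3.3 (TMM, quasi-likelihood test with robust fit, neuron as a block, Benjamini-Hochberg over all genes). DESeq2 1.42.0 was an alternative. Shares, levels and exact tests came from Python 3.11 (SciPy 1.17.1, pandas 2.3.3, NumPy 2.4.6). Both tests across genes were tested on simulated data. The 3′ end shares were compared where both main ends together had 10 reads in both compartments of 5 neurons, with the end of higher number in place of the distal one. Genes named were the 9 members, each partner called, the 2 most abundant genes of each list and the 3 genes most like each member. Some genes that this rule names are not reported here. Annotation was GENCODE on GRCm38. Pairing comes from the cells, as both compartments of a neuron share its number. Deviations from the compartment means, correlated across genes, gave a mean r of 0.0887 ± 0.0772 (SD) in the 16 pairs of 1 cell, against -0.00559 ± 0.0526 (SD) in the 240 pairs of unlike cells. Alternatives were no block, DESeq2 size factors, the median gene at 0, ERCC scaling, other filters, exon counts, each number of rounds, an exact sign-flip test and leaving out each neuron. Summed 3′ ends and leaving out neurons 15 and 16 were added after the data were seen.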

Additional observations from a re-analysis of the deposited data

Results flagged for a closer look

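Values that lay far from the rest were looked for in groups of 4 to 10 samples, which here are the 4 neurons of 3 rounds and the 7 neurons with end shares of Lrrtm1. Of 20 such groups, 2 held a value past Dixon's critical ratio, and chance alone flags about 1 in 20. Among the somas of the 4 neurons with 3 rounds, neuron 4 had 59.2 CPM of Nlgn2 and 129.9 CPM of Lrrtm4, while the other 3 had no more than 16.4 and 17.4 CPM. The ratios of gap to range were 0.856 and 0.869. Neuron 4 also had the deepest soma library of these 4, with 7218255 reads on 3′UTRs.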

How the results depend on the processing

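Of the 9 adhesion genes, 0 were called higher in dendrites under every alternative run. The number called higher in somas was 8 with ERCC scaling, 6 with DESeq2 and 2 with the exact sign-flip test (Nrxn3 and Lrrtm2), and 0 under the others, leaving out each neuron in turn included. With the median gene at 0, the log2 fold change turned to 1.08 for Nrxn2, 0.25 for Nrxn3, 1.13 for Nlgn1, 0.37 for Nlgn2 and 0.87 for Lrrtm3. In neurons of 3 rounds alone it was 0.75 for Nlgn1, 0.60 for Lrrtm3 and 0.050 for Lrrtm4, and without neurons 15 and 16 it was 0.30 for Nlgn1. Leaving out 1 neuron at a time gave -0.62 to 0.028 for Nrxn2, -0.89 to 0.42 for Nlgn1 and -0.95 to 0.15 for Lrrtm3, and no other member changed sign. The others ran from -1.46 to -0.75 for Nrxn3 (highest without neuron 13 or 12), -1.37 to -0.65 for Nlgn2 (15 or 12), -3.56 to -2.43 for Nlgn3 (16), -3.08 to -1.81 for Lrrtm1 (16), -3.86 to -2.56 for Lrrtm2 (15) and -3.98 to -2.63 for Lrrtm4 (16). Without the replicate block, Nlgn1 had 0.80 and Lrrtm3 0.46. In that fit 1 partner gene was called higher in somas (77 of 10880 over all genes), and no call on the 9 genes changed. The values moved toward 0 for Nlgn2 (-0.026), Lrrtm1 (-0.31), Lrrtm4 (-0.94), Nlgn3 (-1.01), Lrrtm2 (-1.34) and Nrxn2 (-0.24), with -1.30 for Nrxn3. Of the partner genes, 80 passed the filter of the main fit. Those called higher in dendrites numbered 5 with the median gene at 0 (590 of 10880 over all genes). They numbered 3 with DESeq2 (4.26% of all genes) and with the sign-flip test (3.24%). The number was 0 with no filter (15 of 31102), with a filter of 10 reads (88 of 7109) and in neurons of 3 rounds (3 of 13186). It was also 0 on summed ends (68 of 9693) and without neurons 15 and 16 (60 of 11309), and 0 to 1 without single neurons. Partner genes higher in somas numbered 54 with ERCC scaling (62.9% of all genes), 42 with DESeq2 (46.2%) and 14 with the sign-flip test (19.7%). They numbered 4 with DESeq2 size factors (1008 of 10880 over all genes). The number was 1 with no filter (143 of 31102), on exon counts (257 of 9804) and without neurons 15 and 16 (190 of 11309). It was 0 with the median gene at 0 (89 of 10880), a filter of 10 reads (181 of 7109) and 3 rounds (1 of 13186). Without single neurons it was 0 to 9, with 9 without neuron 5 (967 of 10826). The adhesion genes present in at least 15 dendrites fell from 4 to 1 (Nrxn2) with a minimum of 10 reads. In thinned libraries only Nrxn3 had an expected number of 15 or more. Nrxn2, Nlgn1 and Nlgn2 had reads in exactly 15 dendrites, so thinning could only put them below 15. That cut cannot tell whether their presence depends on depth, and Nrxn2 stayed just under 15. The cause of these changes was not tested.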
